A study of Mus musculus with 2 samples.

Results

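Collagen-high cells with a fibroblast-like profile numbered 113 of the 23792 barcodes deposited for a mouse fibrosarcoma, 100 in the iron-positive library and 13 in the iron-negative library. They were selected on measured values: at least 2000 UMIs (unique molecular identifiers, 1 per captured transcript), at most 15% mitochondrial UMIs, at least 5 UMIs each of Col1a1, Col1a2 and Col3a1, at most 4 of Rgs5, at most 1 of Cdh5, and no joint detection of Sox9 and Grem1. Rgs5 marks pericytes and Cdh5 marks endothelium, so both limits set vessel cells aside. The mice were WT C57BL/6 and carried syngeneic fibrosarcomas implanted subcutaneously, which were dissociated with collagenase b and DNase I for 45 min at 37 degrees C, after which red cells were lysed. A magnetic column split the suspension into the eluate it retained (iron-positive) and the flowthrough (iron-negative), and each fraction gave 1 single-cell 3' library. Both libraries share the genotype, the tumour model and the digestion. The number of animals, their age and sex and the name of the tumour line are not given in the sources used here.

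With 1 library per fraction there is no replicate, so no test was run, and each difference below compares 2 libraries. Intervals are exact 95% intervals that cover counting error only. Levels are CPM (counts per 1000000), the UMIs of a gene over all UMIs of the summed cells. The members held 2280942 UMIs in the iron-positive library (median 20501.5 per cell, range 2353 to 74114) and 439754 UMIs in the iron-negative library (median 35762, range 2819 to 78010). The 2 libraries shared 85 barcode sequences, of which 0 belonged to a member.

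Fibroblasts build the connective tissue around other cells. They secrete fibrillar collagens, whose chains are folded and hydroxylated inside the cell and trimmed and cross-linked outside it. In skin, adventitial fibroblasts around vessels carry Pi16, Dpt and Cd34, and in wounds and tumours fibroblasts can take on a myofibroblast or matrix-depositing state with Postn, Tnc and Lrrc15. A fibrosarcoma is a malignant tumour of cells that themselves resemble fibroblasts, so expression of collagen alone does not separate host fibroblasts from tumour cells.

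All 3 collagen genes that define the cells lie on different chromosomes in the mm10 (GRCm38) build, Col1a1 at chr11:94936224-94953042, Col1a2 at chr6:4504814-4541544 and Col3a1 at chr1:45311538-45349706. The promoter windows of Col1a2 and Col3a1 are shown because the rule required both transcripts in every member. Each is the 250 bases before the RefSeq start, 5′ to 3′, plus strand, GRCm38.p6, at chr6:4505368-4505617 for Col1a2 and chr1:45311288-45311537 for Col3a1. Capitals mark CCAAT and TATAA, searched on both strands.
Col1a2: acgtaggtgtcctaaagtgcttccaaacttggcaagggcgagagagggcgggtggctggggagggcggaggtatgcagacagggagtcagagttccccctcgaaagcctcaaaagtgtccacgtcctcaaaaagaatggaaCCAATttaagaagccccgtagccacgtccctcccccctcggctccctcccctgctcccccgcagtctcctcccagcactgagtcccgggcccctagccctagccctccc
Col3a1: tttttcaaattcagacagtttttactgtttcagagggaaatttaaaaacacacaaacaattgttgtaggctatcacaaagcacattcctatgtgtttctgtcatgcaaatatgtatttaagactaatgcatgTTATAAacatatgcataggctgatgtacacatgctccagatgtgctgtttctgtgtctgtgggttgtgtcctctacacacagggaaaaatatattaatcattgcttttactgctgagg
Col1a2 had a CCAAT that begins 109 bases before the start and no TATAA. Col3a1 had overlapping TATAA matches on the 2 strands, beginning 118 and 117 bases before the start, and no CCAAT. Among 32851 RefSeq windows of the same length, 33.9% held CCAAT and 22.8% held TATAA.

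The collagens gave the selection, so their levels are a description. Col1a1, a chain of type I collagen, stood at 11639 CPM (11499 to 11780) in the iron-positive members and 10519.5 CPM (10218.5 to 10827) in the iron-negative members. Col1a2, the partner chain, was at 9231 and 10331 CPM, and Col3a1, the chain of type III collagen, at 8906 and 9846 CPM. Single cells ranged from 6 to 1289 UMIs of Col1a1 in the iron-positive library (median 227.5) and from 9 to 837 in the iron-negative library (median 428). The groups overlapped over nearly the whole range. Few cells sat near the threshold: the lowest of the 3 collagens was 5 UMIs in 1 iron-positive and 0 iron-negative members, and 4 UMIs in 2 and 0 barcodes just outside the rule. It was 5 to 9 UMIs in 5 and 1 members, and at least 10 in the other 95 and 12.

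A low collagen signal was also found in other cells, and its source was not tested. In phagocyte-like cells (Csf1r at 3 or more UMIs, Rgs5 and Col1a1 at most 4, Cdh5 at most 1), which should lack the gene, 22.3% of iron-positive and 6.53% of iron-negative cells held a Col1a1 UMI, at median depths of 12898.5 and 15119 UMIs. After thinning each cell to 2000 UMIs these shares were 4.53% and 0.964%, against 99.0% and 92.3% of members; the UMI limits on Col1a1 in both rules set this contrast. For Dpt, a small protein that organises collagen fibrils and that no rule used, the values were 24.0% and 61.5% of thinned members (66% and 84.6% before thinning) against 0.0575% and 0.0136% of thinned phagocyte-like cells (0.460% and 0.272% before thinning).

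Of the 6 markers of the members, 3 are the collagens of the rule, so the marker levels describe the cells and do not test the label. Of the other 3 markers, Tnc, a matrix glycoprotein of wounds and tumours, was at 1871 and 1171 CPM in iron-positive and iron-negative members and 5.86 CPM in iron-positive phagocyte-like cells. Dpt was at 283.7 and 634.4 CPM against 0.33 CPM. Pi16, a peptidase inhibitor of adventitial fibroblasts, was at 138.1 and 775.4 CPM against 4.25 CPM. These 3 did not mark every member: 87 of 100 iron-positive and 8 of 13 iron-negative cells held Tnc, 66 and 11 held Dpt, and 31 and 8 held Pi16. The general fibroblast genes were present as well, with Dcn (decorin) at 2483 and 2790 CPM, Thy1 at 393.7 and 450.3 CPM and the PDGF receptor gene Pdgfra at 185 and 138.7 CPM. Ddx3y, Eif2s3y, Kdm5d and Uty, which lie on the Y chromosome, had 0 UMIs in all members, while Xist was at 609.4 and 377.5 CPM. In phagocyte-like cells, Xist was at 645.1 CPM, Ddx3y and Eif2s3y were at 0, and Kdm5d and Uty were at 0.0413 and 0.0138 CPM.

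**Figure D1:**
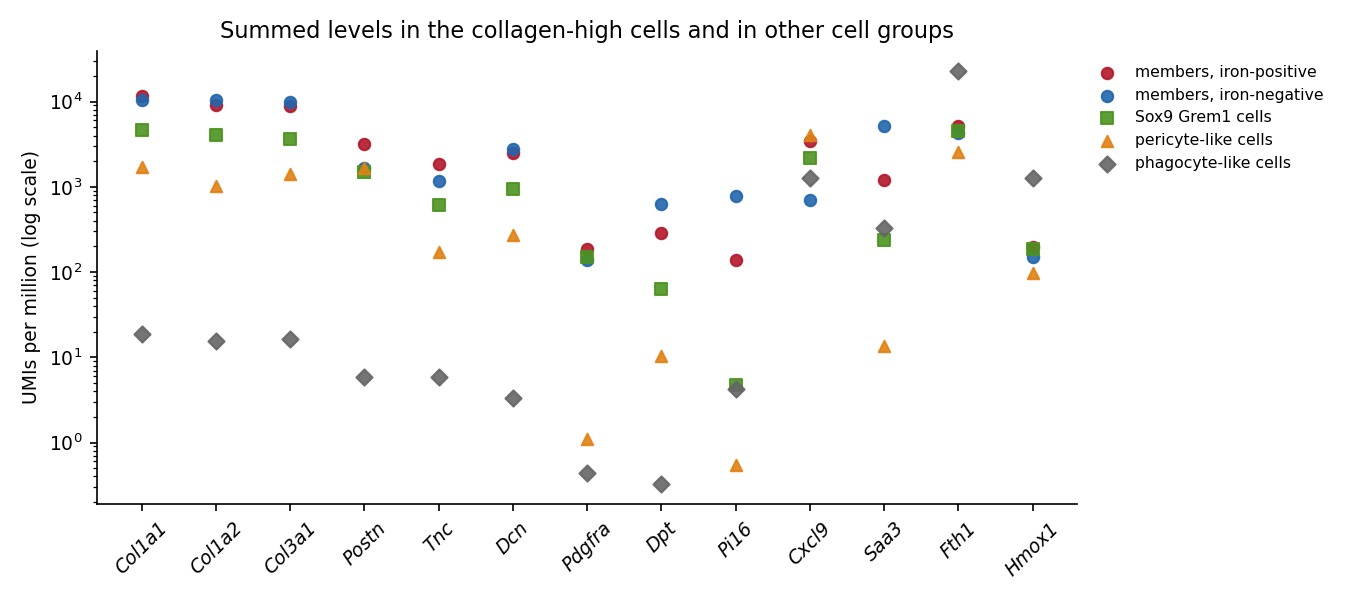
Summed CPM (log axis) of 13 genes in iron-positive and iron-negative members and, for the iron-positive library, in Sox9 Grem1 cells, pericyte-like cells and phagocyte-like cells; each point is 1 sum over cells. Col1a1, Col1a2 and Col3a1 lie near 10000 CPM in both sets of members and under 20 CPM in phagocyte-like cells, and Pi16 is at 138.1 and 775.4 CPM in members against 4.70 CPM in Sox9 Grem1 cells.

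Other cell types contributed in different degree. Of 16 phagocyte markers, all were detected in both sets of members, and their summed level ranged from 260.9 to 31800 CPM over iron-positive cells (median 1226) and from 966.8 to 13414 CPM over iron-negative cells (median 2075), against a sum of 35182 CPM in phagocyte-like cells. Both Csf1r and Tyrobp reached 2 UMIs in 18 iron-positive and 2 iron-negative members. Endothelial markers summed to 103.9 and 34.1 CPM, with 0 and 7 of 12 at 0 UMIs, and pericyte and smooth muscle markers to 183.7 and 75.0 CPM, with 0 and 8 of 12 at 0. Rgs5 itself had 13 and 0 UMIs, within the limit of the rule. Markers of T and NK cells, skeletal muscle, keratinocytes, mesothelium and red cells each summed to under 20 CPM. Other lists were higher. Schwann cell markers summed to 327.1 and 61.4 CPM, with a median of 0 and a maximum of 16497 CPM over iron-positive cells. Adipocyte markers summed to 222.3 and 322.9 CPM. Tendon and cartilage markers, which include Sox9 and Grem1, summed to 196 and 100.1 CPM.

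Against iron-positive phagocyte-like cells, the iron-positive members were at least 2-fold higher for 17.3% of 8777 genes with 10 CPM or more in either, and 2-fold lower for 21.3%. The rule used collagens to pick the members, so these counts and the values of matrix genes describe the cells and test nothing. All 9 measured fibrillar collagens (of 11 in the list) and 12 of 12 measured other collagens were higher, as were 39 of 41 matrix glycoproteins and proteoglycans and 21 of 26 genes that process collagen. The median log2 ratio was 8.70, 7.77, 8.50 and 6.25 in these lists, against -0.20 over all genes. Sparc, which binds collagen outside the cell, stood at 9145 CPM against 46.8 CPM, and Serpinh1, the collagen chaperone of the endoplasmic reticulum, at 1271 against 8.38 CPM. Lox, an enzyme that cross-links collagen, was at 691.4 against 1.36 CPM. Pcolce and Bmp1, which act together in trimming procollagen, were at 571.7 against 2.63 CPM and 526.5 against 2.72 CPM. The 15 genes with the largest ratios at 100 CPM or more included Ecrg4 (log2 ratio 11.25), Fibin (10.65), Igfbp5 (10.38, an IGF-binding protein), Abi3bp (10.37), Fndc1 (10.34), Adamts5 (9.71, a proteoglycan-cleaving protease), Cilp (9.62) and Cthrc1 (9.27, a secreted protein of activated fibroblasts).

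Iron and heme genes ran the other way against phagocyte-like cells: 16 of 32 measured genes were lower and 6 higher, beside 21.3% and 17.3% of all genes, with a median log2 ratio of -0.95. The ferritin subunit gene Fth1 was at 5187 CPM in iron-positive members and 22619.7 CPM in iron-positive phagocyte-like cells, and Hmox1, which breaks down heme, at 198.2 and 1257 CPM. Slc40a1, the iron exporter ferroportin, was at 7.45 and 97.3 CPM. Slc39a14, an importer of zinc and of iron not bound to transferrin, was at 147.7 CPM in members and 23.1 CPM in phagocyte-like cells.

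Pericyte-like cells (Rgs5 at 5 or more UMIs, Cdh5 and Csf1r at most 1) also make matrix. Against them, 12.1% of 8548 genes were higher in the iron-positive members and 12.1% were lower. Of the measured fibrillar collagens, 8 of 9 were higher in the members, whereas 4 of 13 other collagens were higher and 4 were lower. Col4a1, a basement membrane chain, was at 420.4 CPM in members and 3042 CPM in pericyte-like cells. Pdgfra separated the groups further, at 185 and 1.10 CPM.

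The nearest group was the Sox9 Grem1 cells, in which both genes were detected, 71 cells in the iron-positive library. Here 8.59% of 8308 genes were higher in the iron-positive members and 5.39% were lower, with a median log2 ratio of -0.05 over all genes. Only 43 of 100 iron-positive and 6 of 13 iron-negative members held neither Sox9 nor Grem1, and the rest held 1 of them. Median depth was 30153 UMIs in the Sox9 Grem1 cells and 20501.5 UMIs in the iron-positive members. The part of depth in joint detection was not tested. Col1a1 was at 11639 CPM in members and 4648 CPM in Sox9 Grem1 cells, which were selected without a collagen minimum. Tnc was at 1871 CPM in members and 617.9 CPM in Sox9 Grem1 cells, and Dpt at 283.7 and 63.7 CPM. Of 19 measured adventitial genes 13 were higher in members and 0 lower (median log2 ratio 1.95), of 41 matrix glycoproteins and proteoglycans 22 were higher and 0 lower (1.08), and of 13 complement genes 10 were higher and 0 lower (2.35). The complement list includes C1qa, C1qb and C1qc, which phagocytes express, and 15 of 16 phagocyte markers were higher in members too (2.12). The Sox9 Grem1 class was limited to 1 UMI of Csf1r and the members were not, and the part of phagocyte RNA in the complement values was not tested. Genes with the largest ratios over Sox9 Grem1 cells included Clec3b, Pi16, Htra3, C4b, Cxcl14, Cxcl5 and Aif1. Clec3b, which encodes the plasminogen-binding tetranectin, was at 100.8 against 2.14 CPM, Pi16 at 138.1 against 4.70 CPM and C4b, a complement component, at 108.7 against 9.83 CPM. Aif1 is a phagocyte gene, at 859.9 CPM in phagocyte-like cells against 130.2 CPM in members.

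Genes lower in members than in Sox9 Grem1 cells included Sox9 and Grem1, on which the rule acts. The growth factor gene Areg was at 8.77 CPM in members and 103.4 CPM in Sox9 Grem1 cells, the chromatin gene Hmga2 at 20.2 and 159 CPM, S100a4 at 269.2 and 1448 CPM and the cyclin gene Ccnd1 at 30.3 and 156 CPM. G2M genes, which mark cells close to division, did not follow: 0 of 21 were higher and 1 was lower, beside 8.59% and 5.39% of all genes, with a median log2 ratio of -0.13.

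The members were not uniform. Clustering of all 113 cells on 1000 variable genes gave 5 subclusters, numbered by size and described by their leading genes; the same genes made the clusters, so no test applies. Subcluster 1 held 38 cells, led by H19, Saa3, Igf1, Col7a1, Col23a1, Cyp1b1, Grem1 and Il11. It had the highest summed level of the myofibroblast list among the 5, 14786 CPM, and of the fibrillar collagens, 48424 CPM. Tnc was detected in 38 of 38 of its cells at 2956 CPM, Postn (periostin) at 5068 CPM and Lrrc15, a surface protein of tumour myofibroblasts, at 535.4 CPM in 36 cells. Acta2, the smooth muscle actin of contractile myofibroblasts, was not highest there: it was at 366.4 CPM against 667.7 CPM in subcluster 2. Saa3, an acute-phase protein gene, was at 4421 CPM, but 42.2% of its UMIs came from 1 cell. H19 was found in 7 of 38 cells and Il11 in 18, with 45.3% and 48% of their UMIs from 1 cell. Grem1, on which the rule acts, was found in 16 cells.

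Subcluster 5, with 15 cells, was led by Scara5, Hpgd, Pamr1, Dmkn, Clec3b, Sema3c, Pcsk6 and Tnxb. Its adventitial list summed to 24239.5 CPM, against 3717 to 5857 CPM in the other 4 subclusters, while its myofibroblast list, at 2981 CPM, was the lowest. Pi16 was at 1616 CPM and in 15 of 15 cells, against 6.91 to 179.9 CPM elsewhere, and Dpt was at 1859 CPM. Dpp4, a peptidase of fibroblast progenitors, was found in 13 of 15 cells at 181.8 CPM, and in 1, 0, 2 and 0 cells of subclusters 1 to 4. Tnc was found in 1 of its cells, and Inhba (an activin subunit), Il11 and Grem1 in 0. Tnc and Pi16, both given as markers of the members, were thus highest in different subclusters.

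Subcluster 2, with 27 cells, was led by Mgp, Slc20a1, Serpina3f, Sparcl1, Mmp12, Cxcl10, Nr4a3 and Ptn. Genes induced by interferon gamma summed to 19563 CPM there, against 7076 to 16184 CPM in the others. Cxcl9 and Cxcl10, chemokines that draw T cells, were at 5128 and 2092 CPM, and Socs1, which dampens cytokine signalling, at 316.2 CPM in 21 of 27 cells. Cxcl9 was also at 4400 and 4089 CPM in subclusters 3 and 4, against 1157 and 384.2 CPM in subclusters 1 and 5. Cxcl10 was at 1550 CPM in subcluster 4 and at 206.1, 520.1 and 295 CPM in subclusters 1, 3 and 5. For Mmp12, 89.6% of the UMIs came from 1 cell.

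Subclusters 3 and 4 had leading genes of another kind. In subcluster 3, of 18 cells, phagocyte markers summed to 17175 CPM and 14 cells reached 2 UMIs of both Csf1r and Tyrobp. Its leading genes included Gldn, Pmp2, Mbp, Gatm, Gpr65, Slamf9 and Ly86. In it, 1 cell held 100% of the Gldn and Pmp2 UMIs and 92.8% of the Mbp UMIs, while Gpr65, Slamf9 and Ly86 are expressed by phagocytes. Its Col1a1 level, 5582 CPM, was the lowest of the 5, and its median depth, 30737 UMIs, was the highest. These cells met the collagen rule and carried phagocyte RNA; whether they are doublets was not tested, and no doublet caller was run. Subcluster 4, of 15 cells, was led by Cdc20, Cenpf, Ube2c, Hmmr, Ccnb1, Cenpe, Tpx2 and Racgap1, which act in mitosis, and its G2M list summed to 3642 CPM against 55.6 to 723.7 CPM in the others. Mki67 was found in 12 of its 15 cells.

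**Figure D2:**
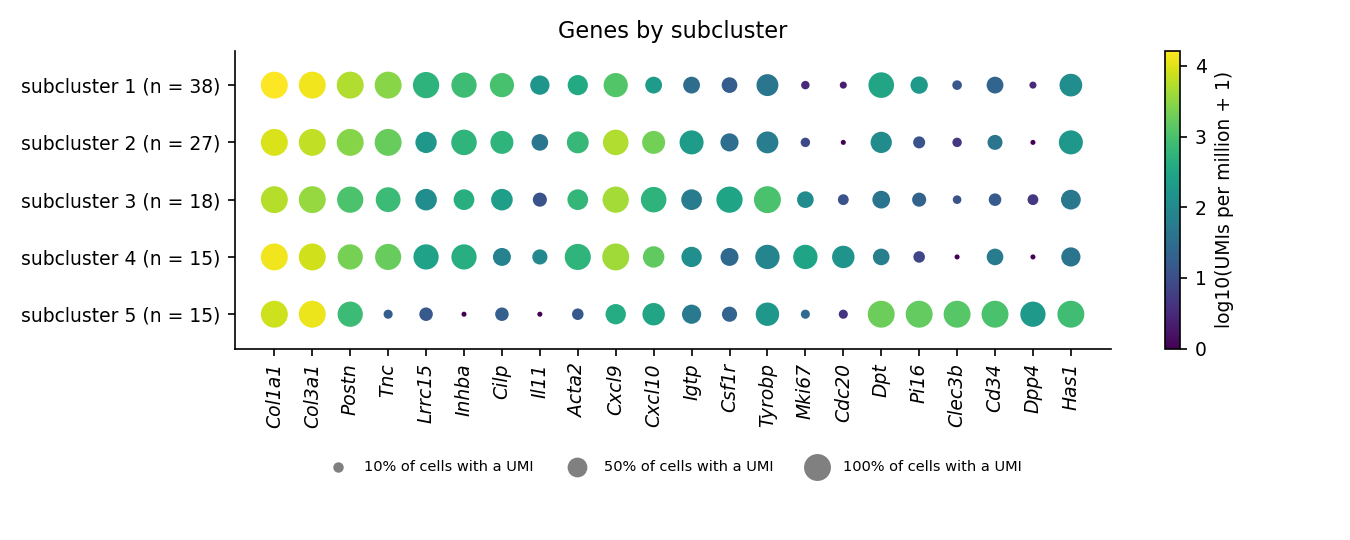
Levels of 22 genes in the 5 subclusters; point colour gives log10(CPM + 1) over the summed cells and point size the share of cells with a UMI. Tnc, Lrrc15 and Il11 are low in subcluster 5, where Dpt, Pi16, Clec3b, Cd34 and Dpp4 are highest, Csf1r and Tyrobp are highest in subcluster 3, and Mki67 and Cdc20 in subcluster 4.

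**Figure D3:**
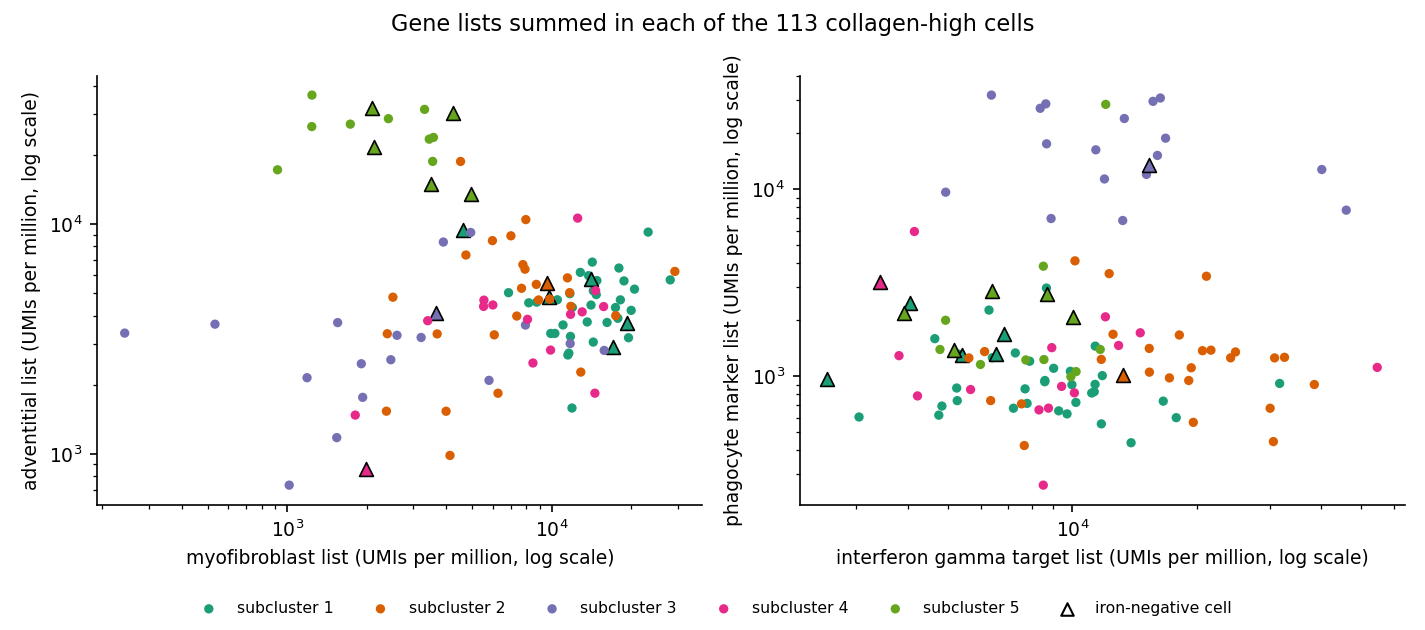
Summed gene lists in each of 113 cells (CPM, both axes log), coloured by subcluster, with iron-negative cells as outlined triangles. The 15 cells of subcluster 5 are high for the adventitial list and low for the myofibroblast list, and subcluster 3 is high for phagocyte markers. In subcluster 5, 1 iron-positive cell had 0 CPM for the myofibroblast list and cannot appear on that log axis.

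The subclusters held up unevenly. Subcluster 5 had 78.9% to 100% overlap (shared cells over all cells of both) with its best match under 6 other settings. Subclusters 1 and 2 overlapped their best match by 57.6% and 40.9% at resolution 0.3 and by 46.8% and 40% with 8 components. Subcluster 3 overlapped by 11.1% without members with phagocyte genes, a setting that leaves out 14 of its 18 cells. With cells thinned to 2000 UMIs, 3 groups were found and the best overlap of subclusters 1 to 4 was 20.6% to 54.4%.

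Members made up 1.10% (0.894% to 1.33%) of the 9110 iron-positive barcodes that passed the depth and mitochondrial limits, and 0.148% (0.0788% to 0.253%) of the 8787 iron-negative ones. The iron-positive share was thus 7.42 times higher (4.15 to 14.4), and 5.70 times (3.19 to 11.1) over all barcodes deposited. Other settings of the rule gave ratios of 6.91 to 8.84, except that with no condition on Sox9 and Grem1 the counts became 181 and 56 and the ratio 3.12. Phagocyte-like cells were 57.2% of passing iron-positive and 83.8% of passing iron-negative barcodes, so a share is relative to them.

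The excess was shared with other matrix-producing and vessel cells. Sox9 Grem1 cells were 3.26 times (1.98 to 5.59) more frequent in the iron-positive library, from 71 and 21 cells, and endothelial-like cells 77.9 times (33.1 to 241.3), from 404 and 5. Pericyte-like cells numbered 101 and 1. These 3 classes were limited to 1 UMI of Csf1r, and the size of each ratio depends on that limit. Among the barcodes that met the collagen condition, 100 of 368 iron-positive (27.2%, 22.7% to 32%) and 13 of 59 iron-negative (22.0%, 12.3% to 34.7%) were members. As a share of members, pericyte-like and Sox9 Grem1 cells together, members were 36.8% (31.0% to 42.8%) and 37.1% (21.5% to 55.1%). These intervals overlap and cover counting error only. The last 2 shares depend on the Csf1r limit, which the members did not have, and without it both would be lower. Whether that share differs was not tested, with 13 iron-negative members and 1 library per fraction. The rule lost different cells on the way: of those that met the collagen condition, 136 iron-positive and 1 iron-negative barcodes exceeded the Rgs5 limit, while joint detection of Sox9 and Grem1 then took out 81 and 43. The Sox9 Grem1 class, with the Csf1r limit and no collagen minimum, held 71 and 21 cells, so that limit left out barcodes of both libraries.

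**Figure D4:**
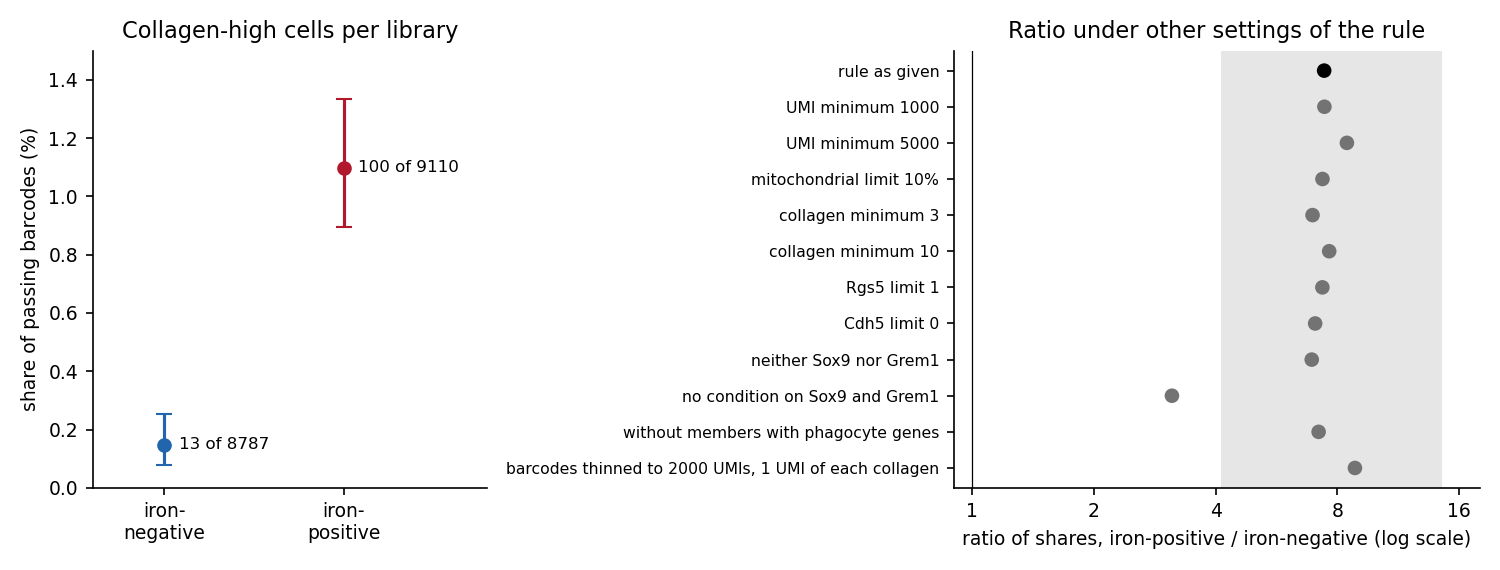
Left, the share of passing barcodes that were members (%, points) with exact 95% binomial intervals (bars) in each library. Right, the ratio of the shares (log axis) under the rule as given (black) and under 11 other settings (grey), with the interval of the main ratio shaded from 4.15 to 14.4; the setting with no condition on Sox9 and Grem1, at 3.12, lies outside it.

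The makeup by subcluster leaned apart. Subcluster 5 held 10 of 100 iron-positive members (10.0%, 4.90% to 17.6%) and 5 of 13 iron-negative members (38.5%, 13.9% to 68.4%), and subcluster 2 held 26.0% (17.7% to 35.7%) and 1 cell (7.69%, 0.195% to 36.0%). Subcluster 1 held 33.0% and 38.5%. All of these pairs of intervals overlap, which is not a test of a difference, and none was run.

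Between the libraries, 8418 genes had 10 CPM or more in either set of members; 6.49% were at least 2-fold higher in the iron-positive members and 9.55% were at least 2-fold lower, with a median log2 ratio of -0.13. Depth per cell was lower in the iron-positive members, and the iron-negative side rests on 13 cells, so 1 cell can set a value. Of 9 measured fibrillar collagens 1 was higher and 0 were lower, with a median log2 ratio of 0.01. The rule required Col1a1, Col1a2 and Col3a1 in every member of both libraries, so their ratios describe the members and test nothing. Col1a1 had a ratio of 1.11 (1.07 to 1.14) and a log2 ratio of -0.28 to 0.27 under other settings, and Col1a2 and Col3a1 were at 0.894 and 0.904.

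Interferon-induced genes were higher in the iron-positive members. Of 20 measured genes induced by interferon gamma (a list added after values were seen), 10 were at least 2-fold higher and 0 were lower, with a median log2 ratio of 1.05, and of 13 type I interferon genes 7 were higher and 0 lower, with a median of 1.06. Over all genes, 6.49% were higher and 9.55% were lower. Cxcl9 ranged up to 24941 CPM over iron-positive cells (median 948.6) and up to 4402 CPM over iron-negative cells (median 66.3). It was detected in 86 of 100 and 8 of 13 cells, and the groups overlapped. Summed, Cxcl9 was at 3410 and 691.3 CPM, a ratio of 4.93 (4.40 to 5.55). The highest cells weigh in both sums. The iron-positive cell at 24941 CPM held 58459 UMIs. The iron-negative cell at 4402 CPM held 38394 UMIs, carried phagocyte genes and lay in subcluster 3. The log2 ratio of Cxcl9 was 2.3 over all members and 3.254 without members with phagocyte genes. It was 3.596 within subcluster 1 and 1.688 within subcluster 5, a spread that the counting interval does not cover. Cxcl10 was at 1016 and 84.1 CPM, a ratio of 12.1 (8.73 to 17.2), with 20.9% and 54.1% of its UMIs in 1 cell of each library. Isg15, a ubiquitin-like protein, was at 336.7 and 70.5 CPM (4.78, 3.34 to 7.08), Iigp1, a GTPase that acts against intracellular parasites, at 829 and 343.4 CPM (2.41, 2.05 to 2.87), and B2m, the light chain of MHC class I, at 3414 and 1915 CPM (1.78, 1.66 to 1.92). Isg15, Iigp1 and Cxcl10 were under 2-fold in some other settings. The log2 ratio of Isg15 was 2.23 over all members, 0.76 within subcluster 1, 0.91 after thinning and 3.33 within subcluster 5. For Iigp1 it was 1.27 over all members, 0.26 within subcluster 1, 0.63 within subcluster 5 and 0.88 without members with phagocyte genes. For Cxcl10 it was 3.58 over all members, 3.51 within subcluster 1 and 0.95 within subcluster 5.

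Summed per cell, the interferon gamma list ran from 3048 to 54619.5 CPM in iron-positive members (median 10128.5) and from 2551 to 15315 CPM in iron-negative members (median 6385). The highest iron-positive cells exceeded every iron-negative cell, and the lower parts overlapped. Within subcluster 1 alone (33 and 5 cells) the list median was 0.71 on the log2 scale, and within subcluster 5 (10 and 5 cells) it was 0.63, under the 2-fold line in both. Without members with phagocyte genes it was 0.91. In phagocyte-like cells of the same libraries Cxcl9 stood at 1256 and 1488 CPM, Cxcl10 at 252.9 and 236.5 CPM and Iigp1 at 318.7 and 314.3 CPM in iron-positive and iron-negative cells. The level was not particular to the members. In the iron-positive library the list summed to 14121 CPM in members and 11510 CPM in Sox9 Grem1 cells. It summed to 15457 CPM in pericyte-like, 17841 CPM in endothelial-like and 13282 CPM in phagocyte-like cells. Against Sox9 Grem1 and pericyte-like cells, 0 of 20 measured genes were higher in iron-positive members and 0 lower (median log2 ratios -0.04 and -0.17).

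The Cxcl10 promoter window is shown because this gene had the largest ratio among the interferon-induced genes. It lies 5′ of the gene at chr5:92348890-92349139 on the minus strand (RefSeq start, GRCm38.p6, 250 bases before the start, 5′ to 3′). Capitals mark the core of the interferon-stimulated response element, GAAA, then any 2 bases, then GAAA, searched on both strands.
Cxcl10: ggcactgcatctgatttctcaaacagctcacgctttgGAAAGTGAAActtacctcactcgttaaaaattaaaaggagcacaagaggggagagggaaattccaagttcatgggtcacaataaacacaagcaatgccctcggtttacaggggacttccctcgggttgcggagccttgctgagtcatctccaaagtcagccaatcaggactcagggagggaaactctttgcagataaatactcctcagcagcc
The match begins 213 bases before the start. Windows with this motif made up 2.98% of the 32851 RefSeq windows. The gamma-activated site, TTCNNNGAA, which 7.02% of windows held, was not in this window, and neither motif was in that of Cxcl9.

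Adventitial genes were lower in the iron-positive members. Of 19 measured, 11 were at least 2-fold lower and 2 were higher, beside 9.55% and 6.49% of all genes, with a median log2 ratio of -1.04. Pi16 was at 138.1 and 775.4 CPM (ratio 0.178, 0.152 to 0.208), in 31 of 100 and 8 of 13 cells, with a median of 0 and 331.3 CPM over cells. Clec3b was at 100.8 and 370.7 CPM (0.272, 0.222 to 0.335), Dpt at 283.7 and 634.4 CPM (0.447, 0.388 to 0.516), and Cd34 at 96.0 and 334.3 CPM. Within single subclusters the values went different ways. Within subcluster 5 the list median was 0.01, with log2 ratios of -0.46 for Pi16, 0.11 for Dpt and 0.11 for Clec3b. Within subcluster 1 the list median was -0.40, with -2.88 for Pi16, -0.08 for Dpt and -3.66 for Clec3b, which was detected in 3 of its 38 cells. The part of the makeup by subcluster in the difference was not tested.

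The myofibroblast list had 3 of 17 measured genes higher and 0 lower, beside 6.49% and 9.55% of all genes, with a median log2 ratio of 0.61. Postn was at 3138 and 1667 CPM (1.88, 1.74 to 2.03) and Tnc at 1871 and 1171 CPM (1.60, 1.46 to 1.75), while Lox was at 691.4 and 1098 CPM. Neither Postn nor Tnc reached 2-fold. The list median was 0.06 within subcluster 1 and -0.14 after thinning to 2000 UMIs. The thinned value cannot show an effect of depth, because the amount added to each count weighs more on the smaller iron-negative sum.

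Several large ratios rested on few cells. The genes at 50 CPM or more with the largest ratios in the iron-positive direction included Sparcl1, Mmp12, Pmp2, Il11, Mmp10, Cxcl10 and Clec4n. Sparcl1, a matricellular protein, had 191 UMIs in 35 iron-positive cells and 0 iron-negative UMIs, where a floor of 3 counts over the summed library makes it at least 12.3-fold higher; pericyte-like cells had 1313 CPM of it. Mmp12, a macrophage elastase, was at least 10.1-fold higher by the same floor, with 43.7% of its UMIs in 1 cell. For Pmp2, a myelin gene, 1 cell held 98.3% of the UMIs. Il11, a cytokine linked to fibrosis, had 221 UMIs in 34 iron-positive cells and 1 in an iron-negative cell (ratio 42.6, 7.57 to 1690.0).

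In the other direction the rule took Cxcl13, Prg4, Lmcd1, Reg3g, Hp, Akap12, Pi16 and Cdc20. Prg4, the lubricant proteoglycan of joints and fascia, was at 60.5 and 618.5 CPM, in 16 and 9 cells (ratio 0.0978, 0.0791 to 0.121), and Hp, haptoglobin, which binds free haemoglobin, was at 91.6 and 579.9 CPM, in 30 and 7 cells. For Cxcl13, Reg3g and Cdc20, 1 iron-negative cell held 94.3%, 100% and 97.1% of that library's UMIs. Saa3 was at 1199 and 5135 CPM, but 1 cell held 58.2% and 75.9% of its UMIs. G2M genes had 9 of 22 lower and 0 higher, beside 9.55% and 6.49% of all genes, with a median of -0.76. Without the member with the most UMIs of each library, the median was 2.04 and Cdc20 was at 2.04 in place of -2.26. In the iron-negative library that member was a cycling cell with 115.4 CPM of Col1a1.

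Of 31 measured genes of iron and heme, 2 were at least 2-fold higher in the iron-positive members and 4 were lower, beside 6.49% and 9.55% of all genes. Their median log2 ratio was 0.04, and -0.62 after thinning to 2000 UMIs. The iron-negative members are fewer, so their thinned sum is smaller. The same amount added to each count then weighs more on that side and lowers the ratio of genes with few UMIs. The thinned median therefore cannot show an effect of depth. Fth1 was at 5187 and 4266 CPM (ratio 1.22, 1.16 to 1.28) and Ftl1, the ferritin light chain gene, at 2023 and 1590 CPM (1.27, 1.17 to 1.38), while Ftl1 reversed to a log2 ratio of -0.09 without members with phagocyte genes. Hmox1 was at 198.2 and 150.1 CPM, with 30.5% and 45.5% of its UMIs in 1 cell of each library, and its log2 ratio ran from -0.83 to 1.71 under other settings. Tfrc, the transferrin receptor, was at 16.7 and 22.7 CPM (0.733, 0.358 to 1.65). The 2 higher genes were Cd163, the haemoglobin scavenger receptor of macrophages (47 UMIs in 7 iron-positive cells, 72.3% of them in 1 cell, and 0 in iron-negative cells), and Slc25a28, a mitochondrial iron carrier (57 and 5 UMIs, log2 ratio 1.01). The 4 lower genes were Hp, Steap4, Steap1 and Lcn2. Among phagocyte markers, 7 of 16 were higher in the iron-positive members and 0 lower, with a median of 0.96, and -0.25 without members with phagocyte genes. Their part in the iron and interferon values beyond that was not tested.

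**Figure D5:**
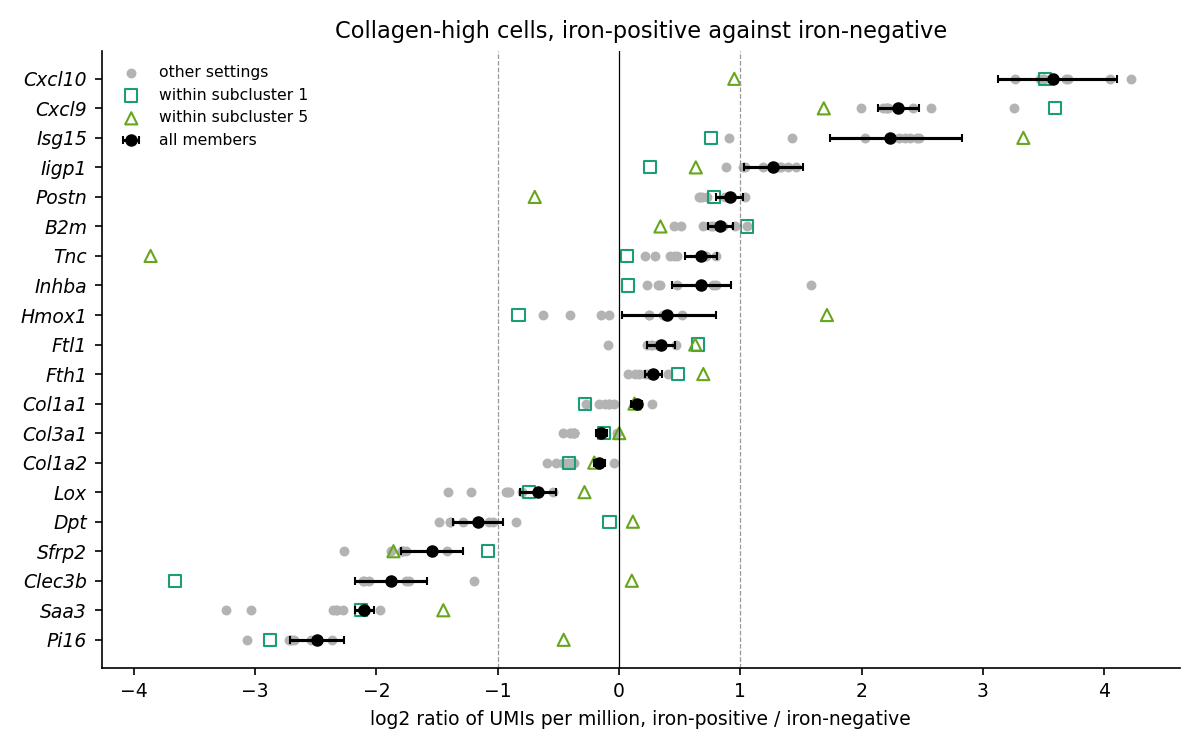
Log2 ratio of iron-positive over iron-negative members for 20 genes, over all members (black, with exact 95% counting intervals), under other settings (grey) and within subclusters 1 (squares) and 5 (triangles); dashed lines mark 2-fold. Cxcl10, Cxcl9 and Isg15 lie right of the 2-fold line over all members, Col1a1, Col1a2 and Col3a1 lie near 0, and Pi16, Clec3b and Dpt lie left of the lower one. Within subcluster 5 these 3 are at -0.46, 0.11 and 0.11, and within subcluster 1 at -2.88, -3.66 and -0.08.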

How the data were processed

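UMI counts per gene and barcode were deposited by the authors as 1 filtered matrix per library, with 32285 genes. The submitters' processing notes name Cell Ranger 3.1.0 and mm10, whereas the file header names Cell Ranger 5.0.0; other steps are not given in the sources used here. Groups came from the labels. Members and comparison classes were taken by UMI limits, with no doublet caller, no removal of doublets and no subtraction of free RNA. The members and lists were chosen with earlier results of these data known.

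Counts were summed over cells per library and divided by their total (CPM). Log2 ratios used 0.5 added to each count, whereas ratios given with an interval used the counts as they were. A gene was called at a 2-fold difference by its log2 ratio among genes at 10 CPM or more in either group. Intervals at 95% were exact Poisson, Clopper-Pearson or conditional exact and cover counting error only. Shares of cells were repeated after thinning to 2000 UMIs. Subclusters used 10000 counts per cell, log1p, 1000 variable genes without mitochondrial, ribosomal and sex-linked genes, 15 components, 10 neighbours and Leiden at resolution 0.5. Named genes were the 6 markers, up to 6 genes per list at the highest level, the 15 largest ratios over phagocyte-like cells, the 8 largest and 8 smallest over Sox9 Grem1 cells and between libraries, and 8 per subcluster, with further genes of the lists and Xist named after their values were seen. 1 of these genes is not reported here. Alternatives changed the limits, scaling, depth and cells included. Of the files' gene IDs, 32235 were found in GENCODE vM21, which gave coordinates; promoter windows came from RefSeq. Clustering used scanpy 1.11.5 with leidenalg 0.10.2, intervals scipy 1.17.1, tables pandas 2.3.3 and figures matplotlib 3.10.9.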

Additional observations from a re-analysis of the deposited data

How the results depend on the processing

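No paired analysis was possible because each fraction has 1 library. The comparison of libraries rests on 13 iron-negative cells, and 1 cell holds most UMIs of several named genes. The interferon gamma list kept its direction under every alternative run (0.63 to 1.29), as did the type I list (0.39 to 1.44). Without a condition on Sox9 and Grem1 the ratio of shares was 3.12 against 7.42. The number of genes called higher was 146 with a 50 CPM minimum, 840 within subcluster 1 and 1308 within subcluster 5, against 546. The number called lower was 2504 after thinning, 145 with a 50 CPM minimum, 1283 within subcluster 1 and 2163 within subcluster 5, against 804. In thinned sums the amount added to each count weighs more on the smaller iron-negative side. It lowers the ratio of genes with few UMIs, so the thinned number cannot show an effect of depth.

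List medians (log2) moved as follows. Thinned to 2000 UMIs, the fibrillar collagens were at -0.15, the myofibroblast list at -0.14 and the iron list at -0.62. These thinned medians carry the same limit from the amount added to each count. Without members with phagocyte genes, fibrillar collagens were at -0.16, adventitial genes at -1.27, myofibroblast genes at 0.34, G2M genes at 1.895 and phagocyte markers at -0.25. With a collagen minimum of 10, fibrillar collagens were at -0.22, adventitial genes at -1.30 and G2M genes at 2.01. Without the member with the most UMIs of each library, these were at -0.26, -1.29 and 2.04, and myofibroblast genes at 0.27. Without members rich in G2M UMIs, fibrillar collagens were at -0.35, adventitial genes at -0.86, myofibroblast genes at 0.23 and G2M genes at 1.15. Within subcluster 1 they were at -0.28, -0.40, 0.065 and 2.03, and phagocyte markers at -0.79. Within subcluster 5, adventitial genes reversed to 0.01 (0.0067 unrounded), myofibroblast genes were at -0.28 and G2M genes at -2.72. Scaling by the median ratio put adventitial genes at -0.92, and subtracting 10% free RNA put phagocyte markers at 5.50. Dpt (0.11) and Clec3b (0.11) reversed within subcluster 5. Cdc20 reversed to 2.05 without members with phagocyte genes, 2.005 with a collagen minimum of 10 and 2.04 without the member with the most UMIs. Thinned cells gave 3 subclusters. For all of these the cause was not tested. Leaving out cells by G2M UMIs, leaving out the cell with the most UMIs and the runs within subclusters were chosen after seeing the data.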

Other observations

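Transcription factors that mark body position, chosen after their values were seen, were present in the members and near 0 in phagocyte-like cells. En1 was at 39.0 and 40.9 CPM in iron-positive and iron-negative members, in 42 and 8 cells, against 0.0826 CPM in iron-positive phagocyte-like cells. Tbx15 was at 32.4 and 34.1 CPM against 0.275 CPM, and Hoxc10 at 32 and 47.8 CPM against 0.413 CPM. Sox9 Grem1 cells had similar levels, with En1 at 46.2, Tbx15 at 41.0 and Hoxc10 at 42.3 CPM, and pericyte-like cells had 17.5, 47.1 and 52.6 CPM.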
